A study of Mus musculus with 27 samples.

Results

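The regions described here are 1313 H3K4me3 peaks of aberrant iPS clone 1 that overlapped, by at least 1 bp, an H3K4me3 peak of aberrant iPS clone 2 and no H3K4me3 peak of the other 6 H3K4me3 lists. They made up 5.61% of the 23388 H3K4me3 peaks of clone 1 and met 1277 of the 28232 peaks of clone 2. The 8 H3K4me3 lists held 167140 peaks together. The regions were chosen by the presence and absence of H3K4me3 peaks, so their H3K4me3 scores, widths and distances are described and not tested.

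The data were peak lists from chromatin immunoprecipitation with sequencing of mouse cells. Both clones were Utx-/Y cells of the V19-OSKM strain, in which doxycycline switches on the reprogramming factors Oct4, Sox2, Klf4 and c-Myc (OSKM). The labels describe them as improperly reprogrammed and give no doxycycline at harvest, and each clone is a separate line with 1 H3K4me3 library. The other 6 H3K4me3 libraries came from V19-OSKM mouse embryonic fibroblasts (MEF) that were wild-type (Utx+/Y, WT) or Utx-/Y (Utx-KO), each without and with doxycycline (dox), and from V6.5 embryonic stem cells (ESC) that were WT or Utx-KO, without doxycycline. All cells were grown in 2i/LIF medium, per the labels. The same states had 1 H3K27me3 library each, and UTX was mapped in WT MEF, WT MEF with dox and WT ESC. Positions are in build mm9, and since the only gene table used here has coordinates of GRCm38, regions are named by position and the labelled cell types and the Utx deletion were not checked against genes.

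H3K4me3 is placed at promoters of active genes and at CpG-rich promoters that are held ready. H3K27me3 is deposited by a Polycomb repressive complex at silent developmental genes, and many such promoters in ES cells carry both marks, a state called bivalent. UTX removes methyl groups from H3K27 and is part of complexes that also methylate H3K4. Reprogramming to pluripotency normally resets both marks to an ES cell pattern.

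The 1313 regions were short, weak H3K4me3 peaks in both clones. The score is the peak caller's own value, which grows with enrichment and with read depth, so it ranks peaks within a list only. In clone 1 the regions scored from 53.3 to 1162 with a median of 165. The median was 721 for all clone 1 peaks and 879 for the 21204 that clone 2 and at least 1 other state also held. In clone 2 the overlapping peaks scored from 50.1 to 3100 with a median of 140, against a median of 549 for all peaks of clone 2. A score of at least 100 was reached by 1175 regions in clone 1, by 917 in clone 2 and by 839 in both. A score of at least 400 in both clones was reached by 29.

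Widths showed the same pattern. The median width in clone 1 was 675 bp, with 1182 of the 1313 regions under 1000 bp (Wilson 95% interval of the share 88.3% to 91.5%). Peaks of both clones that another state also held had a median width of 1411 bp, and 30.1% (29.5 to 30.7) of them were under 1000 bp. In clone 2 the overlapping peaks were wider, with a median of 1135 bp, against 1686.5 bp for all peaks of clone 2. For 1216 regions (92.6%) the peak was wider there than in clone 1. The 2 peaks of a region mostly coincided: the region lay wholly inside the clone 2 peak in 853 cases, and the overlap reached 50% of the shorter peak in 1283. The rank order of the scores was only loosely shared between the clones (Spearman rho 0.38 over 1313 regions, which share their libraries). All intervals here are Wilson 95% intervals and cover counting error over regions only.

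**Figure D1:**
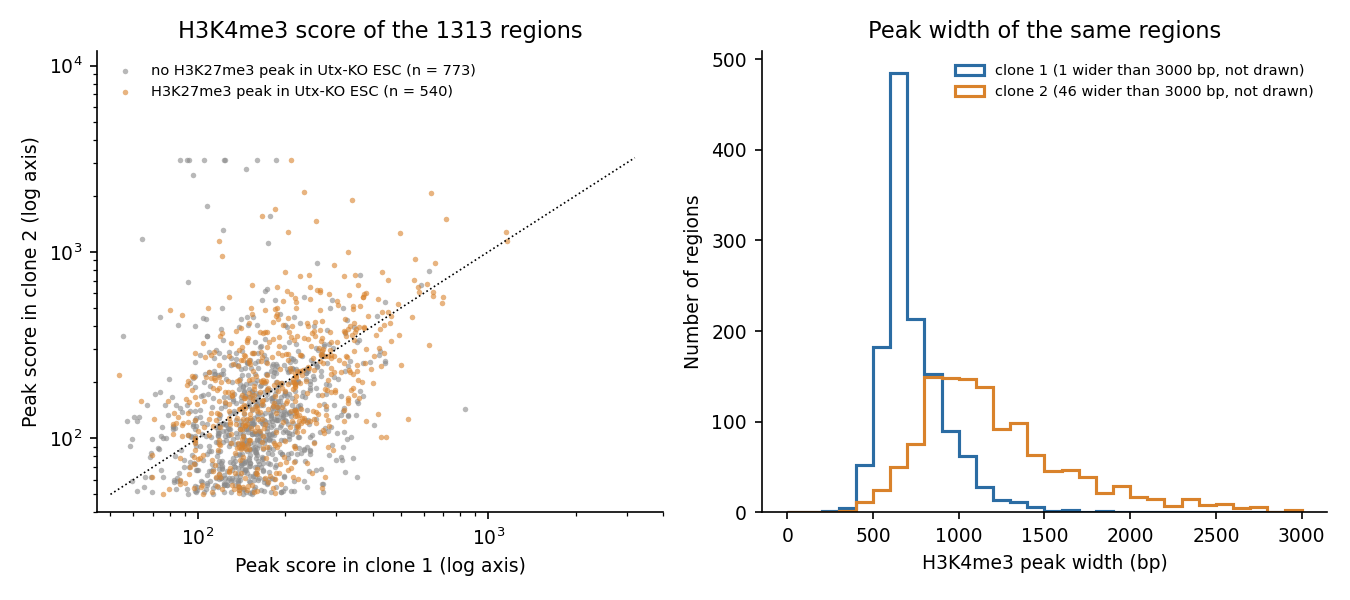
Left, H3K4me3 peak score of each of the 1313 regions in clone 1 (x, log axis) and of its overlapping peak in clone 2 (y, log axis), 1 point per region, orange where Utx-KO ESC had an H3K27me3 peak and grey where it had none, with a dotted line of equal scores. Right, number of regions by peak width in bp in clone 1 (blue) and clone 2 (orange); clone 1 widths gather around 675 bp and clone 2 widths around 1135 bp.

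A few regions stood well above the rest. Chromosome 11 from 118769546 to 118771102 scored 1155 in clone 1 and 1271 in clone 2, and the nearest H3K4me3 peak of any other state was 65761 bp away. Chromosome 5 from 140022152 to 140024115 scored 1162 and 1145, and lay 1871 bp from a peak of another state. No other region passed a score of 1000 in both clones. Next by the lower of both scores were chromosome X from 98989947 to 98990837 (714 in clone 1 and 1494 in clone 2), chromosome 8 from 123612833 to 123614414 (657 and 868) and chromosome 11 from 57644537 to 57645831 (634 and 2075). The X-linked region was 31 bp from a peak of another state, and its clone 2 peak, 2732 bp wide, ran into that peak, as did the 6989 bp clone 2 peak of the chromosome 11 region. More isolated were chromosome 6 from 114515275 to 114515717 (646 and 607, 76074 bp away), chromosome 4 from 59130047 to 59131017 (588 and 667, 69975 bp away) and chromosome 3 from 102739273 to 102740424 (645 and 581, 58183 bp away).

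The widest region was an exception in shape. Chromosome 8 from 125950053 to 125958118 spanned 8066 bp in clone 1 with a score of 64.3, and 8028 bp in clone 2 with a score of 1169. The next widest, chromosome 10 from 57686528 to 57688532, spanned 2005 bp, and these were the only 2 regions of 2000 bp or more in clone 1. In clone 2, 9 regions lay under a peak with a score of 3100, where scores saturate, and all 9 of those clone 2 peaks, 6086 to 14815 bp wide, also overlapped H3K4me3 of another state. The same regions scored 86.6 to 210 in clone 1. Over all regions, the clone 2 peak reached H3K4me3 of another state in 74 (5.64%), and these regions are clone-specific by the clone 1 peak alone.

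The 2 clone lists differed in the share of peaks outside the other 6 lists that the other clone also held. Clone 1 had 1899 peaks in none of the other 6 lists (8.12% of its peaks), and clone 2 met 1313 of them (69.1%, interval 67.0 to 71.2). This was below the 96.3% of all clone 1 peaks that clone 2 met (22517 of 23388). Clone 2 had 5793 peaks in none of the other 6 lists (20.5% of its peaks). Clone 1 met 1212 of these (20.9%, 19.9 to 22.0), and the 1212 were 4.29% of all clone 2 peaks. The share of all clone 2 peaks that clone 1 met is not given. The clone lists also differed in scores, with 96.5% of clone 1 peaks and 78.9% of clone 2 peaks at 100 or more. The 586 peaks found in clone 1 alone scored a median of 125, below the 165 of the regions shared by both clones. When each of the 8 lists was cut to its 16157 highest scoring peaks, 200 regions were left, so the number rests on how deep each list reaches.

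Most regions lay more than 2500 bp from any H3K4me3 peak of the other 6 lists. The median distance to the nearest H3K4me3 peak of the other 6 lists was 8692 bp, and the distances ran from 4 bp to 2909880 bp. A peak of another state lay within 1000 bp of 151 regions (11.5%), within 2500 bp of 301 (22.9%, interval 20.7 to 25.3) and within 10000 bp of 698 (53.2%). An ES cell peak lay within 2500 bp of 215 regions and a fibroblast peak within 2500 bp of 212, with 126 regions near both. The like distances of other clone 1 peaks are not given. Whether the regions were near or far for peaks of their kind was therefore not tested. At the boundary of the rule, 11 regions missed a peak of another state by 50 bp or less (median score 209, median width 698 bp in clone 1), and 11 peaks of both clones were left out for an overlap of 50 bp or less (166 and 665 bp).

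Of the 6 lists, leaving out that of Utx-KO ESC added the most regions. Had it not been consulted, 1808 regions would have qualified, against 1703 without WT MEF with dox, 1679 without WT ESC, 1371 without Utx-KO MEF with dox, 1319 without WT MEF and 1318 without Utx-KO MEF. Leaving out either list of untreated fibroblasts thus added 6 or 5 regions. A peak that a further list also held was not added, and fibroblasts had more lists than ESC. These counts therefore do not measure how much the H3K4me3 of each cell type limited membership.

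Chromosomes 6 and 8 held the largest shares of these regions for their number of clone 1 peaks, and chromosome X the smallest of the chromosomes with more than 3 peaks. On chromosome 8, 120 of 1402 clone 1 peaks belonged to the set (8.56%, interval 7.21 to 10.1), and on chromosome 6, 108 of 1280 (8.44%, 7.04 to 10.1), beside 5.61% over all chromosomes. Chromosomes 10 (78 of 1153, 6.76%, 5.45 to 8.36) and 11 (133 of 1986, 6.70%, 5.68 to 7.88) followed, the interval of chromosome 10 holding the overall value and that of chromosome 11 lying just above it. The lowest shares were on chromosome X, with 11 of 585 (1.88%, 1.05 to 3.34), and chromosome 16, with 19 of 652 (2.91%, 1.87 to 4.51). Chromosome Y had 3 clone 1 peaks and none in the set. Counted from clone 2 peaks, chromosomes 8 and 6 again led with 6.63% and 6.30%, beside 4.29% over all, and chromosome X was lowest at 1.05%. Peaks of clone 1 alone had the same 2 chromosomes on top, at 4.22% of the peaks of chromosome 6 and 4.14% of those of chromosome 8. Peaks of clone 2 alone did not, with 18.6% on chromosome 6, 17.1% on chromosome 8, 18.2% on chromosome 16 and 19.0% on chromosome 10.

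Other lists showed these chromosomes differently. Chromosome 8 held 5.16% to 5.44% of the peaks in the 6 other H3K4me3 lists, 5.99% in clone 1 and 5.67% in clone 2, and chromosome 6 held 4.94% to 5.10%, 5.47% and 5.40%. In the short H3K27me3 list of clone 2, 124 of 737 peaks (16.8%, interval 14.3 to 19.7) lay on chromosome 8 and 121 (16.4%, 13.9 to 19.3) on chromosome 6, whereas in that of clone 1, with 135 peaks, the 2 chromosomes held 8 and 15. Regions on chromosomes 6 and 8 scored much like the rest, with clone 1 medians of 159 and 158 beside 166 on the other chromosomes. The share with H3K27me3 in Utx-KO ESC was 22.2% (15.4 to 30.9) on chromosome 6 and 34.2% (26.3 to 43.0) on chromosome 8, against 43.8% (40.9 to 46.7) over the others together. Low shares were also found on chromosomes 16 (5 of 19 regions), 15 (17 of 59), 12 (16 of 48) and 13 (13 of 38). Among peaks that both clones and another state held, the share was 32.9% (30.2 to 35.7) on chromosome 6, 26.0% (23.6 to 28.5) on chromosome 8 and 12.0% to 32.5% on the other chromosomes with more than 3 such peaks. The number of copies of these chromosomes in the clones was not tested.

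**Figure D2:**
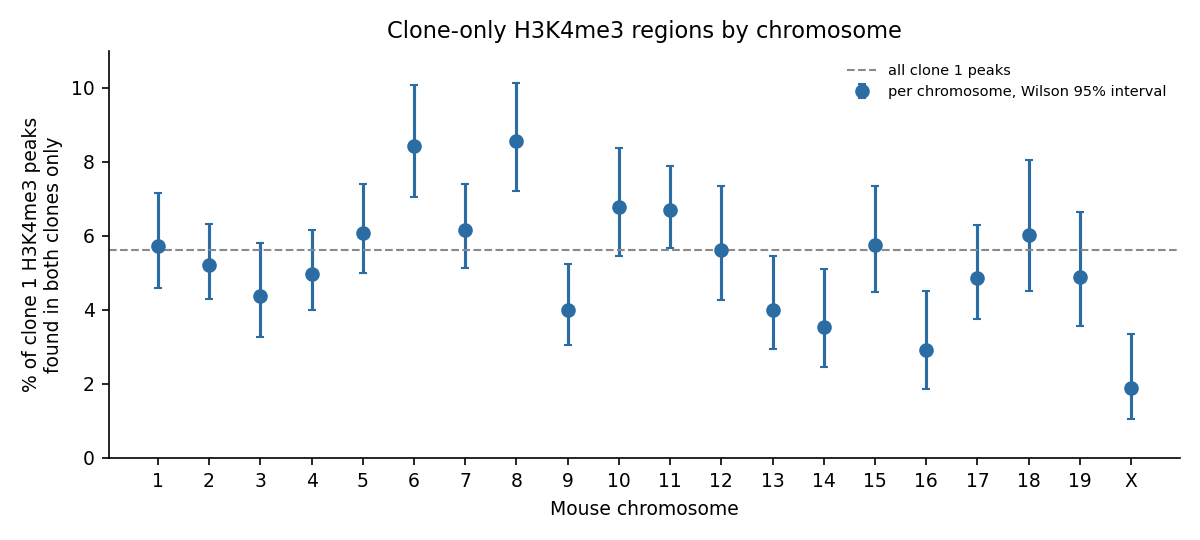
Percent of the H3K4me3 peaks of clone 1 on each mouse chromosome (x) that were found in both clones and no other state (y), with Wilson 95% intervals; the dashed line is the 5.61% over all clone 1 peaks. Chromosomes 6, 8 and 11 lie above the line and chromosomes 9, 13, 14, 16 and X below it with their whole intervals, and chromosome Y, with 3 peaks, is not drawn.

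Within chromosomes, 7 windows of 1 Mb held at least 8 regions each, and these windows held 24 to 105 clone 1 peaks. The 1 Mb window of chromosome 10 from 80000001 to 81000000 held 15 regions among 105 clone 1 peaks, and the window before it, from 79000001, held 11 among 99. On chromosome 7 from 31000001 to 32000000 there were 12 among 53 peaks, and on chromosome 8 from 123000001 to 124000000 there were 8 among 24, the highest share (33.3%) of the 7 windows with at least 8 regions. In that last window clone 1 scores ran from 82.9 to 657, and H3K27me3 of Utx-KO ESC met 3 of the 8 regions and 5 of the 15 peaks that both clones and another state held there. Over the genome, 185 regions (14.1%) lay within 10000 bp of another region of the set. The like share of other clone 1 peaks is not given, and whether the regions gather beyond the density of peaks was not tested.

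H3K27me3 of ES cells, a readout the choice of regions did not use, was frequent at these sites in Utx-KO ESC and uncommon in WT ESC. In Utx-KO ESC an H3K27me3 peak overlapped 540 of the 1313 regions (41.1%, interval 38.5 to 43.8), against 28.2% of all clone 1 H3K4me3 peaks. In WT ESC it overlapped 120 (9.14%, 7.70 to 10.8), close to the 8.08% of all clone 1 peaks. All 120 regions marked in WT ESC were also marked in Utx-KO ESC, 420 were marked in Utx-KO ESC alone, and 773 in neither. Among peaks of both clones that another state also held, 1710 of the 1751 marked in WT ESC (97.7%, 96.8 to 98.3) were marked in Utx-KO ESC as well. The Utx-KO ESC list was far longer (36231 peaks over 79.8 Mb) than that of WT ESC (5679 peaks over 6.20 Mb), and with the 5679 highest scoring Utx-KO ESC peaks the share was 22.5%, against 16.7% of the peaks of both clones that another state held. The WT ESC share was 4.1% where all peaks had to score at least 100. Over the 200 regions left after cutting the H3K4me3 lists to equal length, WT ESC marked 31.5% and Utx-KO ESC 70.5%. The H3K27me3 lists kept their unequal lengths there, and the like shares of other peaks are not given. Clone 2 peaks in none of the other 6 lists, taken without regard to clone 1, had 4.52% and 26.4%. No such shares are given for all clone 2 peaks. Since 1 library stood for each state, no difference between states was tested.

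In Utx-KO ESC the H3K27me3 peaks at these sites were stronger and broader than most of their list, as were those at peaks that other states held. The 540 regions met 512 different H3K27me3 peaks of Utx-KO ESC, with a median width of 3563 bp and a median score of 338, against 1594 bp and 100 over all 36231 peaks. Peaks met by H3K4me3 that both clones and another state held were alike in this, at 3253 bp and 344. Of the 540 regions, 410 (75.9%) lay wholly inside the H3K27me3 peak. In WT ESC 26 of 120 regions did, and the H3K27me3 peaks met there were narrower. They had a median width of 1226 bp and a median score of 77.1, against 941 bp and 65.1 over the whole WT ESC list. The shares of other H3K4me3 peaks that lay wholly inside H3K27me3 are not given.

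Longer and higher scoring regions carried H3K27me3 more often. For regions under 1000 bp the Utx-KO ESC share was 37.9% (35.2 to 40.7) and for the 129 regions of 1000 bp to under 2000 bp it was 70.5% (62.2 to 77.7). Peaks of the same widths that both clones and another state held had 29.4% (28.3 to 30.5) and 32.7% (31.7 to 33.6). In WT ESC the regions had 6.60% (5.32 to 8.16) and 31.8% (24.4 to 40.2), beside 6.77% and 10.1% for the peaks that other states held. Peaks of both clones with H3K4me3 in fibroblasts and not in ESC had higher WT ESC shares at both widths, 17.7% (15.4 to 20.2) under 1000 bp and 39.1% (33.0 to 45.4) from 1000 bp to under 2000 bp, and the second interval overlapped that of the regions. By score in clone 1, the Utx-KO ESC share was 32.6% under 100, 33.7% from 100 to under 200, 53.8% from 200 to under 400 and 80.0% (67.0 to 88.8) among the 50 regions at 400 or more, where WT ESC marked 46.0% (33.0 to 59.6). Peaks held by other states too had 26.9% and 8.74% at scores of 400 or more, and the 147 of them with H3K4me3 in fibroblasts and not in ESC had 87.1% (80.7 to 91.6) and 48.3% (40.4 to 56.3), with intervals overlapping those of the regions.

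**Figure D3:**
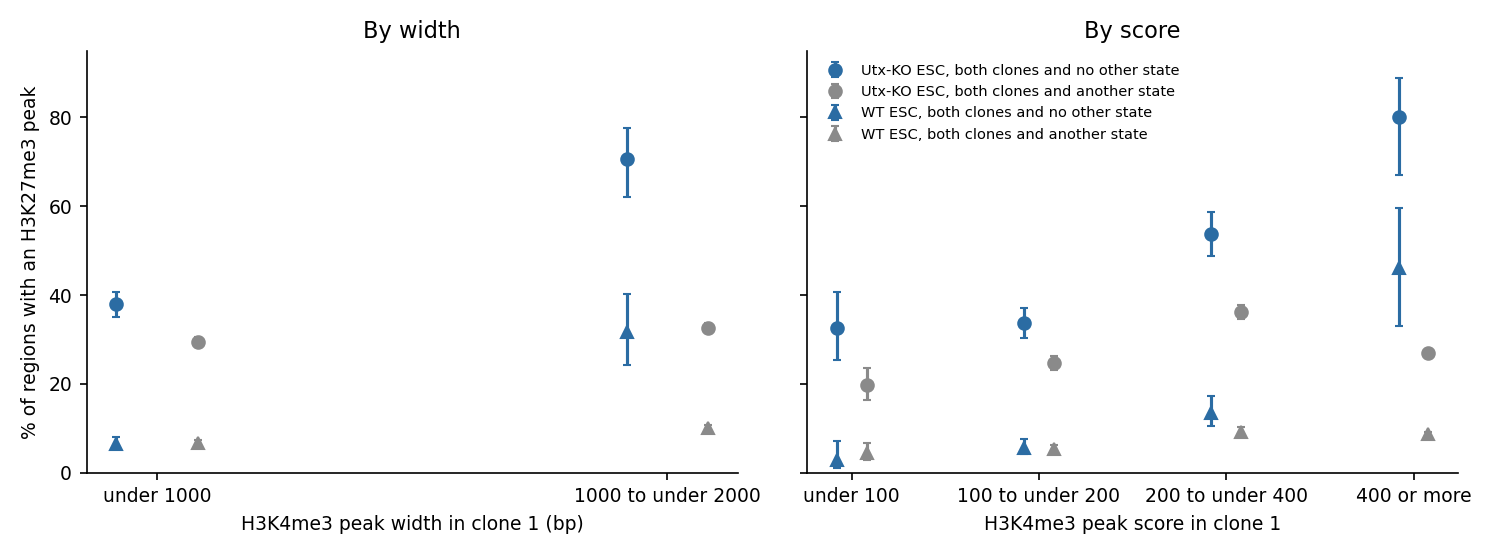
Percent of H3K4me3 regions with an H3K27me3 peak in Utx-KO ESC (circles) or WT ESC (triangles), by clone 1 peak width in bp (left) and by clone 1 peak score (right), with Wilson 95% intervals. Blue points are regions of both clones and no other state, grey points are peaks of both clones and at least 1 other state; the blue circles climb to 70.5% from 1000 bp to under 2000 bp and to 80.0% at scores of 400 or more, and the 2 regions of 2000 bp or more are not drawn.

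The contrast with other peaks depended on which peaks were taken. Among H3K4me3 peaks of both clones, the Utx-KO ESC share was 41.1% for those in none of the other 6 lists, 42.2% for those in 1, 28.4% in 2, 51.2% in 3, 53.4% in 4, 45.2% in 5 and 16.2% in all 6. The low average of peaks held by other states thus came from the 11927 peaks found in every list, and the regions described here lay within the range of peaks with partial spread. Nearest in kind are 1183 peaks of both clones with H3K4me3 in fibroblasts and not in ESC, of which 59.8% (56.9 to 62.5) had H3K27me3 in Utx-KO ESC and 22.1% had it in WT ESC. For 2724 peaks of both clones with H3K4me3 in ESC and not in fibroblasts, the shares were 21.7% (20.2 to 23.3) and 4.77%. The clone-only regions lay between these 2 sets, and did so under 1000 bp too, with 37.9% between 54.9% and 18.0%. From 1000 bp to under 2000 bp the regions had 70.5% and the fibroblast set 78.5% (72.8 to 83.3), and the intervals overlapped. Peaks of clone 1 alone had 18.6% (15.7 to 22.0) in Utx-KO ESC and 2.56% in WT ESC.

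**Figure D4:**
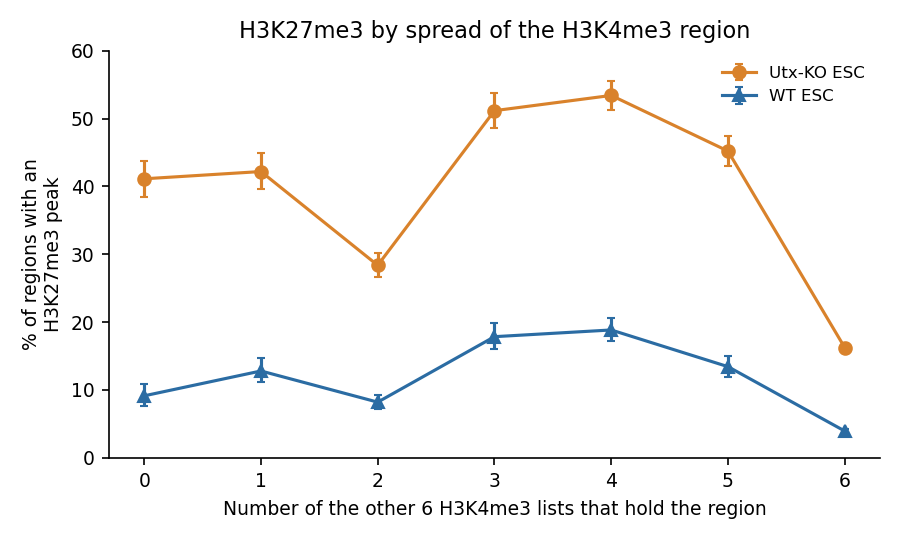
Percent of H3K4me3 peaks of both clones with an H3K27me3 peak in Utx-KO ESC (circles) and WT ESC (triangles), by how many of the other 6 H3K4me3 lists held the peak (x), with Wilson 95% intervals. The value at 0 lists, 41.1% in Utx-KO ESC, belongs to the 1313 regions, and the lowest, 16.2%, to the 11927 peaks in all 6 lists.

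Regions within 2500 bp of H3K4me3 of another state had H3K27me3 in Utx-KO ESC somewhat more often than those over 10000 bp away. Regions over 10000 bp from H3K4me3 of another state had H3K27me3 in Utx-KO ESC at 221 of 615 sites (35.9%, 32.2 to 39.8), and those within 2500 bp at 138 of 301 (45.8%, 40.3 to 51.5). All regions over 2500 bp away gave 402 of 1012 (39.7%, 36.8 to 42.8), an interval that overlapped that of the regions within 2500 bp. Regions whose clone 2 peak met no other state gave 40.8% over 1239.

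Most of the strongest regions had H3K27me3 in Utx-KO ESC. Of the 10 regions with the highest scores in both clones, 8 had an H3K27me3 peak in Utx-KO ESC and 6 of these also in WT ESC. The region on chromosome 11 from 118769546 had an H3K27me3 score of 157 in WT ESC, of 870 in Utx-KO ESC, and no H3K27me3 in the fibroblast lists. That on chromosome 5 from 140022152 lay in a 20322 bp H3K27me3 peak of Utx-KO ESC (score 937), with 87.5 in WT ESC and 415 in Utx-KO MEF with dox. The chromosome 4 region from 59130047 and the chromosome 18 region from 38839539 to 38840976 had no H3K27me3 peak in any of the 6 lists.

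The highest H3K27me3 scores of Utx-KO ESC over these regions were on chromosome 2. There 2 regions, starting at 158436175 (to 158437339) and at 158439441 (to 158440070), lay under 1 H3K27me3 peak of 8605 bp with a score of 3100. Their H3K4me3 scores were 577 and 109 in clone 1 and 610 and 227 in clone 2, and WT ESC had H3K27me3 at the first of them only (117). A further region of chromosome 2, from 26057571 to 26058691, lay in a 12667 bp peak that scored 2625, with 141 in WT ESC. In WT ESC the strongest H3K27me3 was at chromosome 19 from 16950341 to 16951072, with a score of 319 there, 1524 in Utx-KO ESC and 1186 in Utx-KO MEF with dox. Its H3K4me3 was weak, at 128 in both clones, and 255 bp away from H3K4me3 of another state. Chromosome 17 from 86013116 to 86014311 scored 362 and 513 for H3K4me3 and lay in a 25089 bp H3K27me3 peak of Utx-KO ESC, the widest among the named regions.

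Fibroblast H3K27me3 was found at few of these regions, less often than at all clone 1 peaks. It was present at 91 regions in Utx-KO MEF with dox (6.93%, interval 5.68 to 8.43, all clone 1 peaks 10.2%), at 53 in WT MEF (4.04%, 3.10 to 5.24, all 5.58%), at 43 in Utx-KO MEF (3.27%, 2.44 to 4.38, all 5.36%) and at 8 in WT MEF with dox (0.609%, all 0.778%). The first 3 shares lay below those of all clone 1 peaks, and the fourth rests on 8 regions of a list of 938 peaks. The first 3 were not below those of the 2724 peaks of both clones with H3K4me3 in ESC and not in fibroblasts (5.36%, 2.61% and 2.94%). At clone 1 scores of 400 or more, the 50 regions had 24%, 16% and 16%, and 0% in WT MEF with dox. The 147 peaks of both clones at such scores with H3K4me3 in fibroblasts and not in ESC had 42.9%, 30.6% and 23.8%. In all, 117 regions had H3K27me3 in some fibroblast list, and 107 of these (91.5%, 85.0 to 95.3) had it in Utx-KO ESC. Of the 1196 regions without fibroblast H3K27me3, 433 (36.2%, 33.5 to 39.0) had it in Utx-KO ESC. No list of fibroblasts or ESC had H3K27me3 at 763 regions (58.1%).

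**Figure D5:**
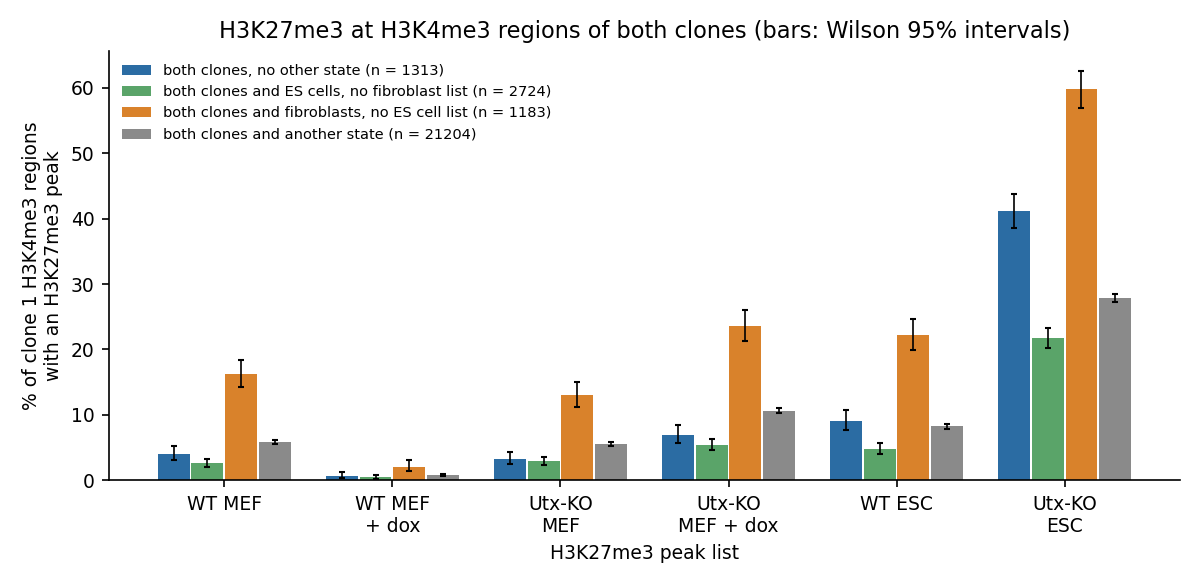
Percent of clone 1 H3K4me3 regions with an H3K27me3 peak in each of 6 H3K27me3 lists (x), for regions of both clones and no other state (blue) and for 3 other sets of clone 1 peaks that clone 2 also held, named in the legend with their n (the gray set includes the green and orange sets). Error bars are Wilson 95% intervals; the blue bar is tallest in Utx-KO ESC, at 41.1% between 59.8% (orange) and 21.7% (green), and is below the gray bar in the 4 fibroblast lists.

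In the clones themselves H3K27me3 was nearly absent from these regions. The H3K27me3 list of clone 1 met none of the 1313 regions and that of clone 2 met 1, chromosome 2 from 162944931 to 162945599, with a score of 229 (655 in Utx-KO ESC); all clone 1 H3K4me3 peaks met them at 0.0428% and 0.107%. These lists held only 135 and 737 peaks, and none of the 135 reached a score of 100, so whether the mark was missing from the cells or poorly recovered in these libraries cannot be told apart.

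UTX peaks were rare at these regions. In WT ESC 14 regions had a UTX peak (1.07%, interval 0.636 to 1.78), against 3.63% of all clone 1 H3K4me3 peaks and 4.70% (3.97 to 5.56) of the 2724 peaks of both clones with H3K4me3 in ESC and not in fibroblasts. The 1183 peaks with H3K4me3 in fibroblasts and not in ESC had a share whose interval overlapped that of the regions (18 peaks, 1.52%, 0.965 to 2.39). The leading ones were chromosome 13 from 44799662 to 44800709 (UTX score 168, H3K4me3 116 in clone 1 and 96.0 in clone 2) and chromosome 1 from 158599340 to 158599882 (131, with 157 and 86.6). Of the 14 regions with UTX in WT ESC, 2 met an H3K27me3 peak in any of the 6 fibroblast and ESC lists, both of them in Utx-KO ESC and neither in WT ESC. WT MEF with dox had UTX at 2 regions, chromosome 2 from 127384993 to 127385496 (UTX score 58.3) and chromosome 11 from 100159300 to 100159979 (UTX score 55.0). WT MEF had it at 1, chromosome 7 from 107827815 to 107828461 (80.0). All clone 1 peaks met the UTX lists of WT MEF with dox and WT MEF at 0.808% and 0.111%. These 3 positions and that of the clone 2 H3K27me3 peak are named because they are few, after their values were seen.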

How the data were processed

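Per the labels, each library was immunoprecipitated for H3K4me3, H3K27me3 or UTX, and the authors deposited 1 peak list per sample (19 lists) with a score for each peak in build mm9. MACS 1.4.1, Bowtie 0.12.5 and CASAVA 1.8.2 are named by the submitters' processing notes (settings, controls and read depth: not given in the sources used here). Scores that the authors deposited look like those MACS writes (a peak probability p as -10 log10 of p), and 50 is the lowest value. Whole-cell extracts were not analysed here.

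Peaks on numbered chromosomes, X and Y were kept (1 mitochondrial peak was left out), and positions are 1-based. Overlap meant at least 1 bp. With 1 library per state, no test between states was run; shares have Wilson 95% intervals, and neighbouring peaks are not independent. The regions, the comparison sets and the classes of width and score were chosen with earlier results of these data known. Named regions were the 10 with the highest score in the clone where it was lower, the 5 widest, and the 5 highest for H3K27me3 of WT ESC, H3K27me3 of Utx-KO ESC and UTX of WT ESC; the text gives a selection. The overlap code was tested on simulated and real lists against bedtools 2.31.1 (40 of 40 counts equal). Intervals were computed with scipy 1.17.1 and figures drawn with matplotlib 3.10.9, in Python 3.11.15 with pandas 2.3.3 and numpy 2.4.6.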

Additional observations from a re-analysis of the deposited data

How the results depend on the processing

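Of 79 alternative values for 8 results, 51 stayed within the error of the main value (1.5 times for the count, 1 SD between the clones for medians, the interval for shares) and 28 did not. The clone medians of width lay far apart (675 and 1135 bp), so large changes of width still counted as within error. Scores of the 2 clones come from lists that are not on 1 scale. With the 16157 highest scoring peaks of each H3K4me3 list, 200 regions were left, with a median score of 404.5, a median width of 1102 bp, H3K27me3 of WT ESC at 31.5% and of Utx-KO ESC at 70.5%, UTX in WT ESC at 0%, 20% within 2500 bp of another state and 2% on chromosome X. At a score of at least 100 the median score was 198.6, H3K27me3 in WT ESC 4.1% (3.05% for peaks of both clones and another state) and the share within 2500 bp of another state 17.4%. With a 50% overlap, WT ESC gave 7.02% and nearness 28.3%. Counted from clone 2 peaks, the median score was 133.1, the median width 1100 bp and nearness 20.6%. Chosen after seeing the data, a clone 2 peak that meets no other state gave a nearness of 18.5%, and equal numbers of ESC H3K27me3 peaks gave 22.5% in Utx-KO ESC. A further alternative chosen then, without chromosomes 6 and 8, moved no result beyond its error and left 1085 regions.

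Asking for 1 clone only, by leaving out each in turn, gave 1899 to 5793 regions, median scores of 82.24 to 149.8, median widths of 663 to 890 bp, H3K27me3 of WT ESC at 4.52% to 7.11% and of Utx-KO ESC at 26.4% to 34.2%, UTX at 1.95% to 2.14%, nearness of 17.6% to 23.1% and 0.79% to 2.28% on chromosome X; the larger set is that of clone 2. No paired analysis was possible because the clone numbers link different marks of 1 clone and no groups were compared by a test. Read depth was unknown, and the number and score of peaks in each list limit every count of presence or absence.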
